A study of Mus musculus with 18 samples.

Results

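Cholesterol and fatty acid synthesis was followed here as 34 genes, chosen by gene name from the 55421 genes of the tables: 18 enzymes of the sterol pathway, 6 genes of sterol sensing and transfer, and 10 enzymes that make, elongate or desaturate fatty acids. All 34 passed the filter on low counts and were tested. The cells were wild-type mouse kidney proximal tubules, taken with collagenase and a Percoll gradient from untreated female C57BL/6J mice aged 6 weeks, and grown on culture plastic without passage. The groups were day 0 (the tubules as isolated) and days 1, 2, 4, 7 and 14 of culture, each with 3 libraries called biological replicates A, B and C. It is not stated whether a letter stands for 1 mouse, for pooled mice or for 1 culture dish, and the spread behind each p-value is that of the 3 libraries of a day, part or all of which may be technical.

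Cells make cholesterol from acetyl-CoA by way of mevalonate, isoprenyl diphosphates, squalene and lanosterol, and make fatty acids from the same acetyl-CoA by way of malonyl-CoA. Both branches are switched on by the SREBP transcription factors, encoded by Srebf1 and Srebf2. These are membrane proteins that the escort protein Scap carries out of the endoplasmic reticulum when membrane sterol is low and that the Insig proteins hold back when it is high. In the intact kidney the proximal tubule runs largely on fatty acid oxidation, and dividing cells need both sterols and fatty acids for new membrane.

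Library totals ran from 23799559 to 37579097 estimated counts, and the least counted member, Tm7sf2, had a mean count of 375.5 over the libraries. The label of the tissue held on day 0, when 12 proximal tubule markers summed to 29250 to 33120 CPM (counts scaled to library size), led by the phosphate transporter Slc34a1, but on day 4 they summed to only 30.55 to 50.53 CPM. The day 0 preparation also held loop of Henle and distal nephron markers (6105 to 7987 CPM over 10 genes, led by Umod). In bulk RNA, fewer cells of a type and less RNA per cell cannot be told apart. For lipid-rich cells that a kidney preparation could carry, the lists were mixed. Of 10 adipocyte markers, 9 were under 1 CPM on day 4 and the list summed to 3.593 to 3.702 CPM, most of it Fabp4. On day 0 it had summed to 3189 to 5479 CPM, nearly all of it Pck1, which the tubule itself expresses. Adipoq and Plin1 had highest daily means of 0.0549 and 0.0120 CPM, but Fabp4 reached 57.1 ± 20.3 CPM on day 1, when 3 of the 5 adipocyte markers tested were higher than on day 0 and 2 lower (edgeR). Of 9 adrenal cortex markers, 7 were under 1 CPM on day 4 and the list summed to 7.15 to 12.31 CPM, led by Akr1b7. Cyp11b1 was at 0 on every day, but 3 of the 4 adrenal markers tested were higher on day 4 than on day 0 and 1 lower. Among them Cyp11a1, singled out after its values were seen, had 0.116 ± 0.0458 CPM on day 2 and 2.51 ± 0.777 on day 4 and was called higher in that step and lower in the next. The part of such cells in the members' levels was not tested.

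Because SREBPs bind the sterol regulatory element together with the CCAAT-binding factor NF-Y and with Sp1, the promoters of the members were searched first. RefSeq promoters (GRCm38.p6, 250 bases before to 50 bases after a start) were held for 27 of the 34 members and for 27025 genes in all, and a gene was counted when any of its listed starts held the motif on either strand. The core TCACNCCA occurred in 3 of the 27 members (11.1%, against 4.97% of all genes), namely Hmgcs1, Msmo1 and Srebf2. Its longer form TCACNCCAC, which contains the former, occurred in 1 (3.7%, against 1.44%). CCAAT occurred in 22 of 27 (81.5%), against 41.1% of all genes and 42.6% of the 11995 genes that were both in this table and tested here. Among the sterol enzymes 14 of 15 held it (93.3%), and among the fatty acid enzymes 4 of 7 (57.1%). The Sp1 box GGGCGG occurred in 23 of 27 (85.2%), against 38.2% of all genes and 65.1% of the tested ones. These matches are letters in a window and not measured binding.

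Stretches of 80 bases are shown for 4 members whose window lies outside the annotated exons of the same gene. Exons of other genes were not checked. Hmgcs1 and Srebf2 are shown for the sterol element, and Insig1 and Fasn, a sensor and the central fatty acid enzyme, for the CCAAT box. Each stretch runs 5′ to 3′ on the strand of its gene. Capitals mark TCACNCCA and CCAAT on either strand (CCAAT reads ATTGG on the opposite one).
Hmgcs1, chr13:119690184-119690263, plus strand: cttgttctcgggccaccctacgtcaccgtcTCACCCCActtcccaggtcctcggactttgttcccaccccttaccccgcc
Srebf2, chr15:82147077-82147156, plus strand: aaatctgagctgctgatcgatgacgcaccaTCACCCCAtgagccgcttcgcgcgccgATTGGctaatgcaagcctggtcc
Insig1, chr5:28071166-28071245, plus strand: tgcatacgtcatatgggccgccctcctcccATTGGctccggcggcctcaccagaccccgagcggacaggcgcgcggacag
Fasn, chr11:120824557-120824636, minus strand: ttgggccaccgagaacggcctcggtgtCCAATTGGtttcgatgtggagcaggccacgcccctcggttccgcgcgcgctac
In the Srebf2 window the sterol element and a CCAAT box lie together. The Hmgcs1 promoter also holds CCAAT on its opposite strand, the nearest at -176 to -172 from the start, just outside the stretch shown. The Fasn window holds a CCAAT and an ATTGG that share bases.

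Most members were lower on day 1 than on day 0, rose by day 4 and fell again by day 14. All 34 members differed among the 6 days (edgeR quasi-likelihood F test, Benjamini-Hochberg adjusted p under 0.05), where 89.8% of the 18754 tested genes did so. In TPM, which are comparable between genes, the 18 sterol enzymes summed to 864, 765 and 759 on day 0, to 557, 582 and 525 on day 1, to 786, 1076 and 911 on day 2, to 3736, 3797 and 3413 on day 4, to 3045, 2772 and 2179 on day 7 and to 1138, 1118 and 1119 on day 14 (replicates A, B and C). Every day 4 library lay above every library of the other 5 days. The 10 fatty acid enzymes together followed a flatter course, with 609, 558 and 586 TPM on day 0, 348, 355 and 346 on day 1, 1628, 1493 and 1409.8 on day 4 and 792, 775 and 832 on day 14. On day 7 they summed to 1455, 1318 and 1119 TPM, so that days 4 and 7 overlapped in this branch.

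**Figure D1:**
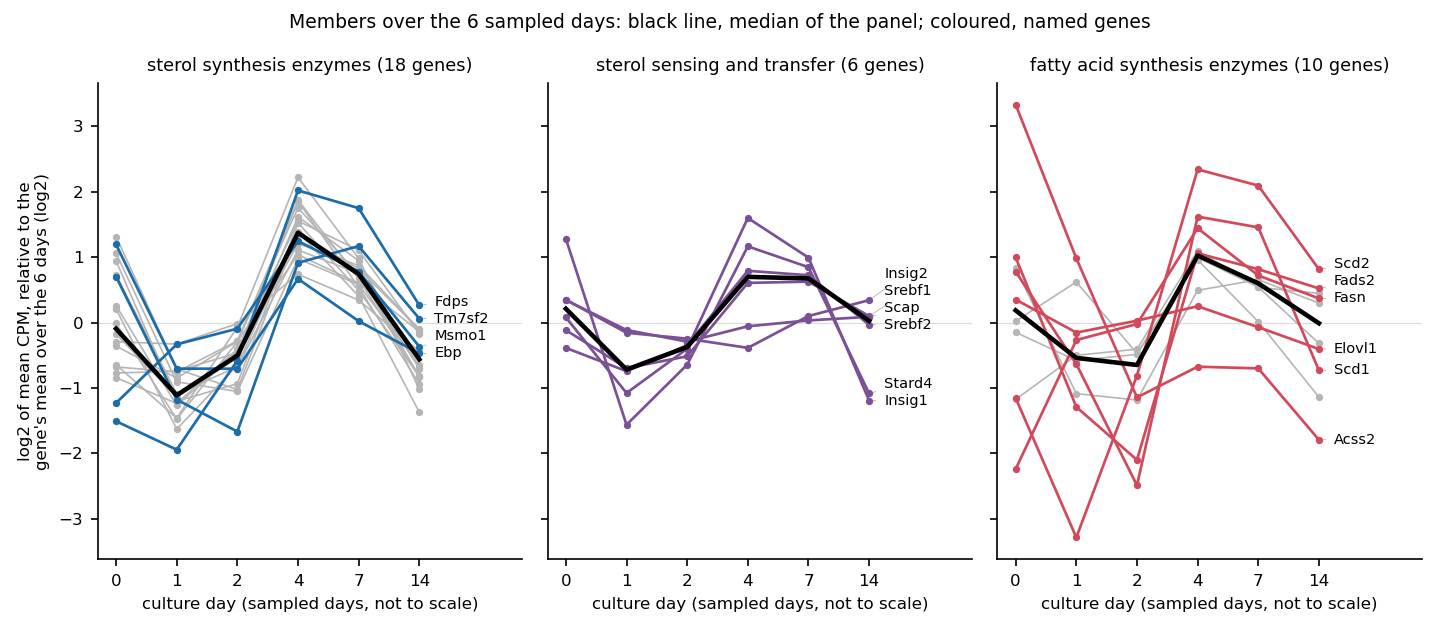
Mean CPM of each member over the 6 sampled days (3 libraries a day), on a log2 scale relative to the gene's own mean over the days, in 3 panels by role. The black median line falls from day 0 to day 1 and is highest on day 4 in each panel. Coloured lines are the genes named at the right, grey lines the others, and Insig2, Scap and Acss2 do not follow the median.

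Of the 34 members, 24 had their highest mean CPM on day 4, where 15.3% of all tested genes did: 15 of 18 sterol enzymes, 7 of 10 fatty acid enzymes and 2 of 6 sensing genes. By mean TPM the number was 28. Another 8 were highest on day 0 (31.6% of all tested genes) and 2, Tm7sf2 and Srebf1, on day 7 (7.53%). In Scd1, Scd2 and Srebf2, among the 24, day 7 replicates A and B averaged 226, 2087 and 321 CPM. Their day 4 means were lower, at 204, 2040 and 306 CPM, so their highest day rested on day 7 replicate C. The lowest mean fell on day 1 in 15 members (17.7% of all tested genes), on day 2 in 7 (8.9%), on day 14 in 7 (14.4%) and on day 0 in 4 (35.9%), namely Sqle, Msmo1, Fasn and Acaca. Of the 34 members, 30 were called higher in a step between neighbouring days and lower in a later one, against 26.4% of all tested genes. The 4 others were Scap, Insig2, Acss2 and Fads2.

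From day 1 to day 2, 15 of the 34 members were higher and 5 lower, where 17% of all tested genes were higher and 17.5% lower (edgeR). In the sterol branch 10 of 18 rose and 1 fell, and in the fatty acid branch 2 of 10 rose and 4 fell. Library sizes without TMM scaling moved the called genes of this step to 71.5% higher, so the split of calls depends on the scaling. Idi1, the isomerase that makes dimethylallyl diphosphate, had 55.6, 52.6 and 46.3 CPM on day 1 and 105, 159 and 141 on day 2, with no overlap (log2 fold change 1.39, SE 0.14, edgeR adjusted p = 3.15e-06). Fdps, the farnesyl diphosphate synthase, rose in the same step by 1.36 (SE 0.21, edgeR adjusted p = 0.000136) and Mvk, mevalonate kinase, by 1.18 (SE 0.15, edgeR adjusted p = 2.33e-05). In the fatty acid branch the stearoyl-CoA desaturases parted. Scd2 rose by 2.48 (SE 0.29, edgeR adjusted p = 1.32e-05), whereas Scd1 fell by 1.86 (SE 0.34, edgeR adjusted p = 0.000527). The elongase Elovl6 fell by 1.09, the delta-6 desaturase Fads2 by 0.81 and Acss2, which makes acetyl-CoA from acetate, by 2.13 on the log2 scale, each under an edgeR adjusted p of 0.05. The lone falling sterol enzyme, the reductase Tm7sf2 (-0.49), and the rise of Elovl1 (0.18) were lost under 9 and 8 of the 28 alternative analyses.

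Between day 2 and day 4, 32 of 34 members rose and none fell, where 19.4% of all tested genes rose and 22.1% fell. All 18 sterol enzymes, 9 of 10 fatty acid enzymes and 5 of 6 sensing genes were among them. The median log2 fold change was 2.04 over the sterol enzymes, 1.49 over the fatty acid enzymes and 1.13 over the sensing genes, and -0.06 over all tested genes. Same-lettered libraries deviated together in this step (r from 0.16 to 0.293), which is only a hint of pairing. With the replicate block 32 rose and 0 fell, where 19.9% of all tested genes rose and 22.2% fell.

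The early sterol enzymes supply isoprenyl diphosphates. Hmgcs1, which makes HMG-CoA, held 182, 221 and 218 CPM on day 2 and 741, 729.9 and 672 on day 4 (3.45-fold, edgeR adjusted p = 4.53e-06). Idi1 reached 679.9, 701 and 607 CPM on day 4, and Fdps went from 74.9, 132 and 109 to 629.9, 702 and 587 (6.08-fold, edgeR adjusted p = 2.98e-07). No day 2 library of these genes came near any of day 4. The kinases and the decarboxylase between them, Mvk, Pmvk and Mvd, rose 4.14-fold, 4.94-fold and 5.51-fold, and the thiolase Acat2 rose 5.33-fold. Fdps was the most abundant member on day 4 by TPM (939 ± 71.4, SD, n = 3), followed by Scd2 (569 ± 52.7), Msmo1 (454 ± 25.1), Idi1 (354 ± 23.8) and Hmgcs1 (347 ± 17.95), the last 2 within their spread of each other.

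The later enzymes close and trim the ring. Squalene synthase Fdft1 rose 3.90-fold, squalene epoxidase Sqle 3.18-fold, lanosterol synthase Lss 4.45-fold and the demethylase Cyp51 4.48-fold from day 2 to day 4. Tm7sf2 started from 2.48, 3.66 and 3.87 CPM and reached 18.4, 22.4 and 19.3 (5.99-fold, edgeR adjusted p = 3.31e-08). It was the sole sterol enzyme whose mean CPM was highest on day 7 (25.6, 21.7 and 24.2 CPM). The smallest rises were those of the desaturase Sc5d (1.69-fold), the ketoreductase Hsd17b7 (2.51-fold), the oxidase Msmo1 (2.53-fold) and the isomerase Ebp (2.59-fold). Nsdhl and Dhcr7, a dehydrogenase and the last reductase of 1 route to cholesterol, rose 4.09-fold and 4.05-fold.

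The annotated exons of a few of these genes overlap those of other genes. Fdft1 has 18.3% of its exonic bases on the opposite strand of Ctsb, whose mean count was 34350 against 4061, and Tm7sf2 has 12.1% on the same strand as Vps51 (946.9 against 375.5). Strandedness of the counting is not given in the sources used here, and whether reads were shared was not measured. Reads shared between related genes (Acat2 and Acat3, Scd1 to Scd4, and Idi1 and Idi2) were not measured either.

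**Figure D2:**
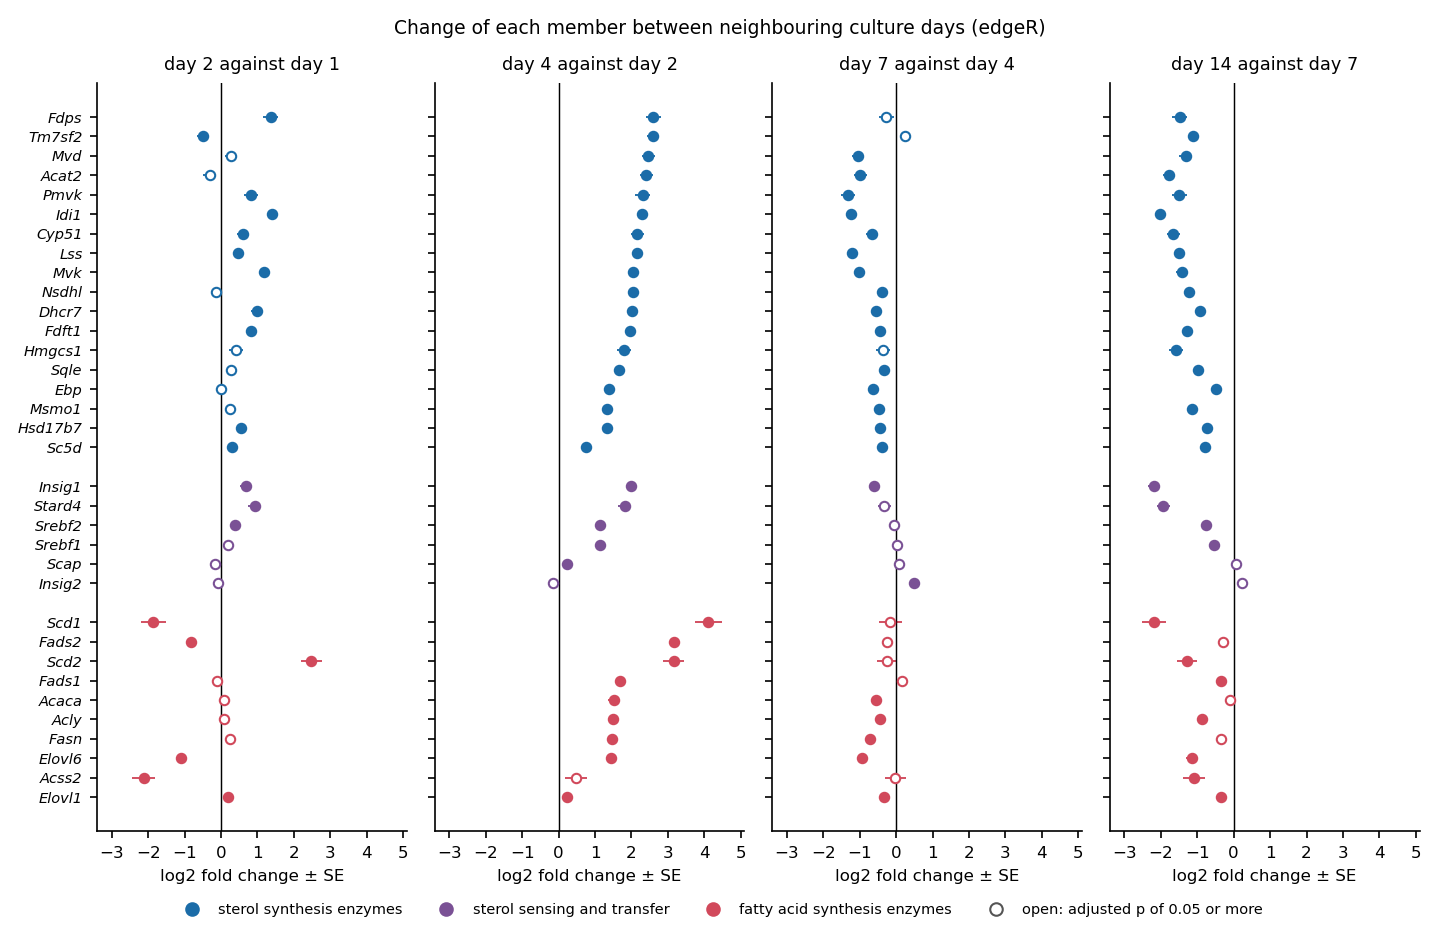
Log2 fold change with its SE (edgeR) of each of the 34 members in the 4 steps between neighbouring culture days, ordered within each role by the day 2 to day 4 change. Filled points have an adjusted p under 0.05 and open points do not, and nearly all points lie right of 0 in the day 4 panel and left of 0 in the day 14 panel.

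The fatty acid enzymes rose in the same step but over a far wider range, from 1.17-fold for Elovl1, an elongase of very long chains, to 17.3-fold for Scd1. Scd1 had 9.93, 11.4 and 14.0 CPM on day 2 and 219, 200.5 and 191 on day 4 (log2 fold change 4.11, SE 0.36, edgeR adjusted p = 5.09e-07). Scd2 had 34.5, 36.8 and 52.2 CPM on day 1, 148, 282 and 257 on day 2 and 2226, 2020.3 and 1875 on day 4 (log2 fold change from day 2 to day 4 3.15, SE 0.30, edgeR adjusted p = 9.19e-07). In neither gene did libraries of the 2 days overlap. Fads2 rose 8.94-fold and its partner Fads1, the delta-5 desaturase, 3.20-fold. The 3 enzymes that build palmitate from citrate were the following: Acly, ATP citrate lyase, 2.79-fold, Acaca, acetyl-CoA carboxylase, 2.85-fold, and Fasn, fatty acid synthase, 2.76-fold. Elovl6, which extends palmitate to stearate, rose by 1.43 on the log2 scale.

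Acss2 was the exception. It held 282, 327 and 298 CPM on day 0, 51.3, 86.9 and 39.3 on day 1, 16.1, 11.5 and 13.0 on day 2, 21.9, 17.8 and 16.6 on day 4, 28.2, 16.6 and 10.4 on day 7 and 8.61, 8.37 and 8.93 on day 14. All libraries of day 2 and later lay below all of day 1, and the change from day 2 to day 4 missed the threshold (0.47, SE 0.30, edgeR adjusted p = 0.232). Acly, which draws acetyl-CoA from citrate instead of acetate, had 299, 329 and 340.2 CPM on day 0 and 760.2, 726 and 654 on day 4. By TPM on day 0, Acss2 was the higher of these 2 genes, with 104, 116 and 106 against 76.0, 82.6 and 84.8 for Acly.

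The sensing genes did not move as a group. Insig1 rose from 37.98, 49.5 and 44.4 CPM on day 2 to 187, 189.8 and 151 on day 4 (log2 fold change 2.00, SE 0.15, edgeR adjusted p = 1.37e-07) and stood at 27.6, 24.2 and 24.3 on day 14. Insig2, which does the same task, had 57.5, 54.7 and 52.5 CPM on day 2 and 52.3, 48.2 and 49.0 on day 4 (-0.14, SE 0.12, edgeR adjusted p = 0.371), its lowest day. It then rose by 0.49 from day 4 to day 7 (SE 0.12, edgeR adjusted p = 0.00457), with 77.8 and 79.4 CPM in replicates A and B and 52.3 in C, a call that was lost when only these 2 days were fitted. Stard4, a carrier of free cholesterol, rose 3.51-fold from day 2 to day 4. The 2 SREBP genes rose less, Srebf2 by 1.14 on the log2 scale (SE 0.11, edgeR adjusted p = 1.7e-06) and Srebf1 by 1.12 (SE 0.10, edgeR adjusted p = 7.15e-07). Scap, their escort, rose by only 0.23 (SE 0.07, edgeR adjusted p = 0.0163), a call lost under 3 alternatives, and it lay between 63.1 and 112 CPM in all 18 libraries.

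**Figure D3:**
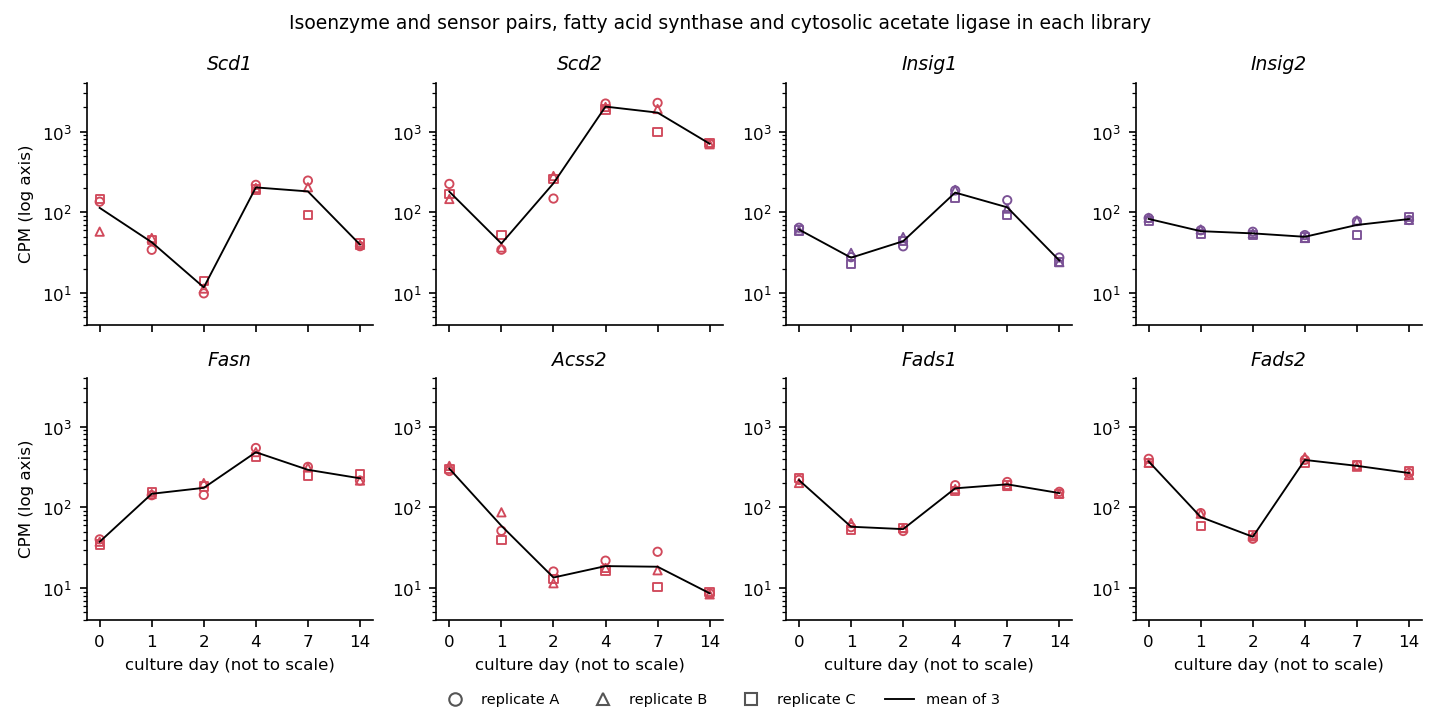
CPM on a log axis in each of the 18 libraries for Scd1, Scd2, Insig1, Insig2, Fasn, Acss2, Fads1 and Fads2, with replicates A, B and C as circles, triangles and squares and the mean as a line. Scd2 reaches at least 1875 CPM in every day 4 library, Acss2 is at most 28.2 CPM from day 2 on, and on day 7 replicate C lies below A and B for Scd1, Scd2, Insig1 and Insig2.

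Ratios within a library, which do not depend on how libraries are scaled, described the paired genes. By TPM the ratio of Scd1 to Scd2 was 0.681, 0.447 and 0.988 on day 0, 1.13, 1.49 and 0.989 on day 1, 0.0758, 0.0459 and 0.0706 on day 2 and 0.0611, 0.0720 and 0.0663 on day 14. Scd1 and Scd2 were thus of like level before and on the first day, and Scd2 was many times higher from day 2 on in every library. The ratio of Insig1 to Insig2 was 0.531, 0.531 and 0.536 on day 0, 2.44, 2.81 and 1.94 on day 4 and 0.246, 0.226 and 0.214 on day 14, so that Insig1 was the more abundant of the pair on day 4 and Insig2 on days 0 and 14. Fdft1 to Fdps, the first step committed to sterol over the shared precursor, was 0.403, 0.478 and 0.358 on day 0, 0.191, 0.182 and 0.191 on day 4 and 0.186, 0.189 and 0.200 on day 14. Fads1 to Fads2 was 0.491, 0.495 and 0.582 on day 0, 1.14, 1.10 and 1.11 on day 2 and 0.534, 0.540 and 0.471 on day 14. With 3 libraries against 3, the two-sided exact permutation test cannot go below 0.1, and 23 of the 30 tests (6 ratios on 5 days against day 0) gave that value (Benjamini-Hochberg adjusted p = 0.13), so none passed the threshold. Srebf1 to Srebf2 lay between 0.307 and 0.606 in all 18 libraries and overlapped day 0 on days 7 and 14.

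Most members fell in each of the 2 sampled intervals after day 4. From day 4 to day 7, 21 members fell and 1 rose, where 15.9% of all tested genes fell and 22% rose (edgeR). In the sterol branch 15 of 18 fell (median log2 fold change -0.50), in the fatty acid branch 5 of 10 (-0.28) and of the sensing genes Insig1 alone. The largest falls were those of Pmvk (-1.31, SE 0.19, edgeR adjusted p = 0.000123), Idi1 (-1.24, SE 0.13, edgeR adjusted p = 1.62e-05) and Lss (-1.20, SE 0.10, edgeR adjusted p = 2.78e-06). Pmvk had 24.5, 22.5 and 12.5 CPM in day 7 replicates A, B and C, so its first place leaned on replicate C. Hmgcs1, Fdps and Tm7sf2 did not pass the test in this step, nor did Scd1, Scd2, Fads1, Fads2 and Acss2. The falls of Sqle and Fdft1 were lost under 17 and 7 alternatives.

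From day 7 to day 14, 29 members fell and none rose, where 7.46% of all tested genes fell and 5.07% rose. With library sizes alone 5.89% of the tested genes fell and 8.29% rose. All 18 sterol enzymes were lower (median -1.30), as were 7 of 10 fatty acid enzymes (median -0.61) and 4 of 6 sensing genes. Idi1 went from 307, 278 and 258 CPM to 68.9, 73.0 and 67.8 (log2 fold change -2.01, SE 0.14, edgeR adjusted p = 1.64e-06). Insig1 fell by 2.19 (SE 0.15, edgeR adjusted p = 1.64e-06), Stard4 by 1.93 (SE 0.18, edgeR adjusted p = 3.1e-05) and Scd1 by 2.19 (SE 0.33, edgeR adjusted p = 0.000958). Scap and Insig2 did not pass the test, nor did Fasn (-0.35, SE 0.13, edgeR adjusted p = 0.0954), Acaca (-0.09, SE 0.14, edgeR adjusted p = 0.741) and Fads2 (-0.29, SE 0.11, edgeR adjusted p = 0.0976). With only the libraries of these 2 days in the fit, 2 of the 7 falls in the fatty acid branch were called.

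On day 14 the sterol enzymes stood at 10.5% (Idi1) to 55.3% (Tm7sf2) of their day 4 mean CPM, with a median of 29.9%. The fatty acid enzymes stood at 19.6% (Scd1) to 87.4% (Fads1), with a median of 46.8%. The 2 ranges overlap, and no test of the difference between branches was made because the members were chosen with results known. Among the sensing genes the share ran from 14.4% for Insig1 to 166% for Insig2.

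**Figure D4:**
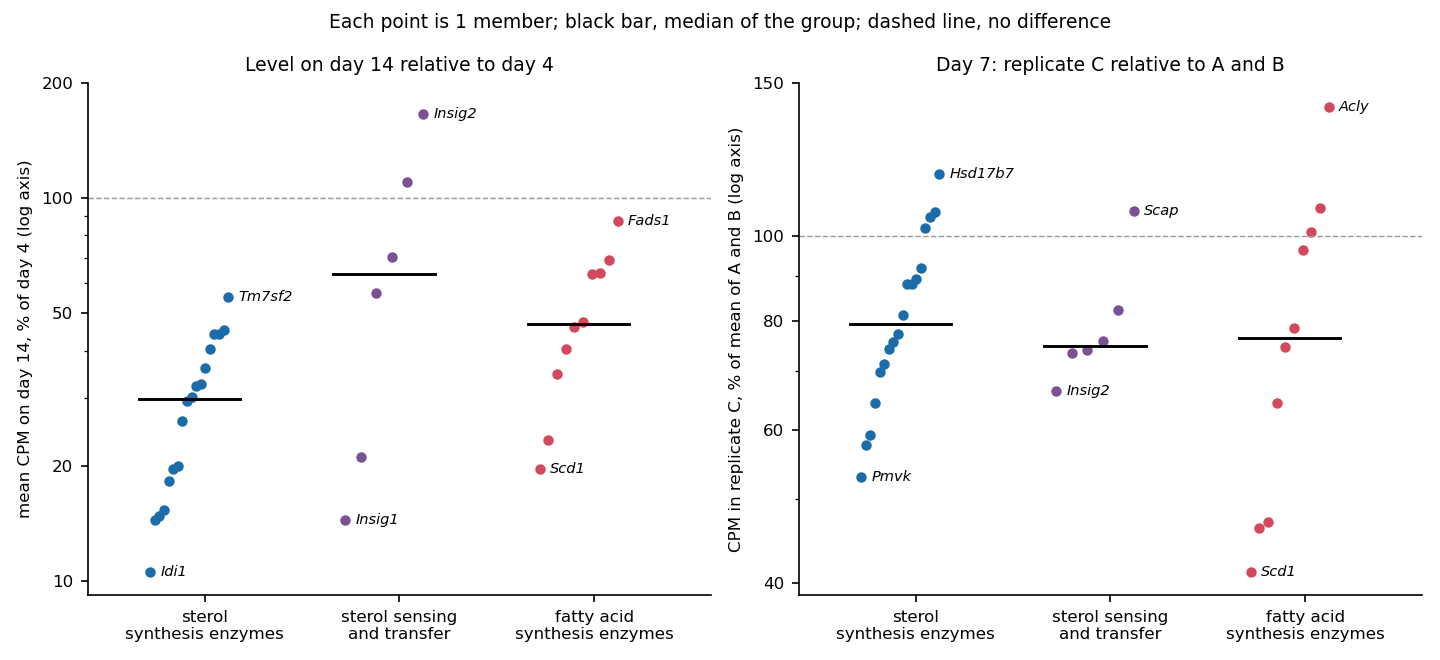
Left, mean CPM on day 14 as a percentage of day 4, and right, CPM in day 7 replicate C as a percentage of the mean of replicates A and B, each on a log axis with 1 point per member and a bar at the median of its role. The sterol enzymes have the lowest median on day 14 (29.9%), and most members of each role lie under 100% in the right panel.

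Against day 0 the counts changed with the scaling of the libraries. Library sizes alone, in place of TMM, shifted the median over all tested genes upward by 0.30 (log2) on day 1 and by up to 0.56 on day 14. On day 1, 26 members were lower and 4 higher, where 37.1% of all tested genes were lower and 33.1% higher. By CPM the sterol carrier Stard4 fell most (log2 fold change -2.85, SE 0.19, edgeR adjusted p = 2.7e-09). It went from 70.1, 73.8 and 72.7 CPM to 8.21, 13.4 and 8.52. Acss2 (-2.35), Fads2 (-2.29), Mvd (-2.15) and Acat2 (-2.03) fell to a like extent. By mean TPM Acss2 (109 to 27.2) and Fads2 (123 to 32.0) fell more than Stard4 (16.9 to 4.84). Against this, Fasn was already higher on day 1, with 142, 146 and 154 CPM against 40.2, 37.6 and 34.8 (log2 fold change 1.97, SE 0.14, edgeR adjusted p = 3.92e-09). Msmo1 (0.90, SE 0.11, edgeR adjusted p = 1.48e-06), Acaca (0.67, SE 0.14, edgeR adjusted p = 0.000565) and Elovl6 were the others that rose. These calls on day 1 were kept under all 28 alternatives.

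On day 2, 20 members were lower and 9 higher than on day 0 (35.3% and 38.9% of all tested genes). With library sizes alone 12 were lower, where 25.6% of all tested genes were lower and 52.8% higher. On day 4, 22 were higher and 5 lower (38.1% and 36.8%), led by Fdps (log2 fold change 3.53, SE 0.23, edgeR adjusted p = 8.03e-10), Scd2 (3.50, SE 0.30, edgeR adjusted p = 2.65e-08) and Idi1 (2.87, SE 0.14, edgeR adjusted p = 4.75e-11), with Acss2 far below (-4.01, SE 0.32, edgeR adjusted p = 1.28e-08). On day 7, 19 were higher and 8 lower (37.6% and 32.1%). On day 14, 8 were higher and 19 lower (37.4% and 32.1%), but with library sizes alone 15 were higher and 12 lower (55.3% and 21.6% of all tested genes), and by limma on log2(TPM + 1) 19 and 9 (62% and 16.6%).

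Under each scaling run, a few genes ended far from where they began. Fasn on day 14 had 215, 215 and 258 CPM (log2 fold change against day 0 2.61, SE 0.14, edgeR adjusted p = 1.23e-10), and Acaca 33.99, 37.3 and 44.2 CPM against 13.6, 12.7 and 11.2 (1.62, SE 0.14, edgeR adjusted p = 4.77e-08). Scd2 (1.97, SE 0.28, edgeR adjusted p = 1.17e-05) and Fdps (1.78, SE 0.21, edgeR adjusted p = 1.52e-06) also stayed higher. Acss2 (-5.13, SE 0.34, edgeR adjusted p = 1.68e-09), Acat2 (-2.69, SE 0.18, edgeR adjusted p = 1.79e-09) and Stard4 (-2.36, SE 0.19, edgeR adjusted p = 1.22e-08) stayed lower. In each of these 7 genes the call was kept under all 28 alternatives. By contrast 27 of the 140 calls of members against day 0 changed sign under some alternative.

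Markers of several other kinds moved over the same days. Endothelial markers summed to 122.1 to 162.3 CPM on day 2 and 42.94 to 51.7 on day 4, and 7 of 8 fell in that step. Fibroblast and pericyte markers summed to 31.98 to 52.02 CPM on day 4 and 191.3 to 234.3 on day 14. The share of counts from mitochondrially encoded genes was 3.93% to 5.73% on day 0, lowest on day 4 (0.439% to 0.498%) and 0.895% to 1.01% on day 14. Of 10 markers of dividing cells all rose from day 1 to day 2, 9 of 10 from day 2 to day 4, and all 10 fell in each later step (edgeR). Their summed level was 6.504 to 11.46 CPM on day 1, 274 to 630.5 on day 2, 1410 to 1567 on day 4, 169 to 974.1 on day 7 and 38.72 to 46.84 on day 14. Libraries within a day differed in both measures. On day 2 replicate A had the lowest dividing-cell sum (274 CPM) and the lowest level in 29 of 34 members. On day 4 replicate C had the lowest sum (1410 CPM) and the lowest level in 26. On day 1 replicate C had the highest sum (11.46 CPM) and the lowest level in 22. On days 0 and 14 no replicate was lowest in more than 18. On day 7 replicate C had by far the highest dividing-cell sum (974.1 CPM against 183.2 and 169). It had the lowest level in 25 of 34 members. These were 14 of 18 sterol enzymes, 6 of 10 fatty acid enzymes and 5 of 6 sensing genes. How many of all tested genes were lowest in these libraries was not counted. Day 7 replicate C differed from A and B over all genes, with a chi-square of counts over its degrees of freedom of 153 and 157. Between A and B it was 10.3. Among the members, Scd1 stood lowest in replicate C, at 41.2% of the mean of A and B, and Acly highest, at 141%. Without day 7 replicate C, 19 members fell from day 4 to day 7 and 30 from day 7 to day 14, where 21.5% and 9.26% of all genes tested in that fit fell. The part of these markers and of the mitochondrial share in the members' levels, and what set that library apart, was not tested.

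Other genes of cholesterol and lipid handling were described from lists of related genes. From day 2 to day 4, of 12 tested genes of other sterol and isoprenoid enzymes 2 rose and 4 fell, of 13 for cholesterol uptake, storage and lysosomal release 3 rose and 4 fell, and of 10 for SREBP processing and turnover 2 rose and 5 fell. Of 20 other fatty acid genes 8 rose and 3 fell, and of 18 glycerolipid genes 8 rose and 6 fell. Over all tested genes 19.4% rose and 22.1% fell in this step. Scarb1, a receptor for high-density lipoprotein, was highest on day 4, with a mean of 116 ± 11.2 CPM (SD, n = 3) against 39.5 ± 4.70 on day 1 and 43.0 ± 0.776 on day 14. Tecr, the reductase of fatty acid elongation, rose by 1.34 from day 2 to day 4 (SE 0.09, edgeR adjusted p = 5.19e-08), and Mbtps1, the protease that first cuts SREBPs, by 0.84 (SE 0.08, edgeR adjusted p = 1.19e-06). The lysosomal acid lipase gene Lipa had 740.3 ± 172 CPM on day 0 and 28.8 ± 4.29 on day 4.

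Of 9 genes of liver X receptor (LXR) factors and sterol efflux, 1 rose and 4 fell from day 2 to day 4 (19.4% and 22.1% of all tested genes), and 5 rose and 0 fell from day 4 to day 7 (22% and 15.9%). Abca1, a cholesterol exporter, had 8.90 ± 2.01 CPM (SD, n = 3) on day 2 and 5.74 ± 1.82 on day 4, and its day 14 mean was 88.0 ± 14.3. The change from day 2 to day 4 missed the threshold (-0.63, SE 0.27, edgeR adjusted p = 0.0693). Its log2 fold change was 2.09 from day 4 to day 7 (SE 0.27, edgeR adjusted p = 5.12e-05) and 1.84 from day 7 to day 14 (SE 0.26, edgeR adjusted p = 0.000523). Nr1h3, which encodes LXR-alpha, had 48.1 ± 2.85 CPM on day 0 and 2.37 ± 0.239 on day 4 and stood at 2.58 ± 0.174 on day 14. The hydroxylase Cyp27a1 had 49.8 ± 7.11 CPM on day 0 and 0.515 ± 0.203 on day 14.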

How the data were processed

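PolyA RNA-seq of 18 libraries, 3 for each of 6 days, was analysed. The authors deposited estimated counts per gene, as whole numbers, and TPM per gene. Per the submitters' processing notes, cutadapt 2.3, FastQC 0.11.8, STAR 2.7.8a, RSEM 1.3.3 and the GRCm38 genome were used. Annotation release and strandedness: not given in the sources used here. Leaving out 5 reporter transgenes, 55421 genes remained.

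CPM used TMM-scaled library sizes. After filterByExpr, 18754 genes entered the quasi-likelihood F test of edgeR, fitting 6 day means over all 18 libraries without a replicate block, with calls where the Benjamini-Hochberg adjusted p was under 0.05. SE is the log2 fold change over the root of F. No pair of replicates looked like 1 library deposited again: the smallest chi-square of counts over its degrees of freedom was 7.03. Same-lettered replicates deviated together (r over 0.1 in all 3 pairs) from day 2 to day 4 alone (r from 0.16 to 0.293), as a hint from the data. Positions come from GENCODE vM21 (GRCm38) and promoters from RefSeq (GRCm38.p6).

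Members, groupings, lists and tests were chosen with earlier results of these data known. All members were named, and of each other list up to 3 genes with the smallest adjusted p among the 6 days and at least 5 CPM, plus Abca1 and the leading marker genes. Of these only some are printed, and some genes are not reported here. Of 196 list genes 195 were matched.

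The results were recomputed with size factors of DESeq2, with library sizes alone, without mitochondrially encoded genes, without the low-count filter, with the Wald test of DESeq2, with limma on log2(TPM + 1) with and without a mean TPM of at least 0.5 and on log2(TPM + 0.1), with only the days compared, with the replicate block, and with each library left out (for ratios this was added after seeing the data). Counts were simulated for day 4 against day 0 over 16551 genes, from the day 0 means and with a dispersion of 0.05. Of 50 genes each changed 1.5, 2, 4 and 8-fold, 3, 21, 50 and 49 were found, and 9 unchanged genes were called. Few genes were changed in the simulation, so it cannot speak to the scaling of libraries against day 0. Figures were drawn with matplotlib 3.10.9 under Python 3.11.15. Models ran in R 4.3.3 with DESeq2 1.42.0, edgeR 4.0.16 and limma 3.58.1.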

Additional observations from a re-analysis of the deposited data

How the results depend on the processing

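No call of a member in the 4 steps between culture days changed sign: of 103 such calls, 82 were kept under all 28 alternatives. Counts against day 0 moved with the scaling. With library sizes alone, members higher on day 1 went from 4 to 7 and on day 14 from 8 to 15, and members lower went from 20 to 12 on day 2, from 5 to 2 on day 4, from 8 to 3 on day 7 and from 19 to 12 on day 14. By limma on log2(TPM + 1), with or without the filter, and on log2(TPM + 0.1), those lower were 11, 1, 2 and 9 on these days and those higher on day 14 were 19, and with the filter 14 against 9 were higher on day 2. Between culture days, 2 instead of 1 member was higher on day 7 against day 4 by limma, and 0 with only the days compared, the same 0 for the sensing genes. The 1 sterol enzyme lower on day 2 against day 1 became 0 with library sizes alone, no filter, limma or only the days compared, and 0 to 2 with 1 library left out. The sensing genes lower in that step went from 0 to 1 by the DESeq2 Wald test and from 0 to 1 with a library left out, and those lower on day 7 against day 4 from 1 to 2 by limma with the filter. Fatty acid enzymes higher on day 2 against day 1 (2) were 1 with DESeq2 size factors, no filter or only the days compared, 4 by limma and 1 to 2 with a library left out. On day 7 against day 4, 1 instead of 0 was higher by limma and 3 instead of 5 lower by limma without the filter. Those lower on day 14 against day 7 (7) were 4 by limma without the filter and 2 with only the days compared. The cause of these moves was not tested. Members highest on day 4 ranged from 21 to 28 (24 as reported), the 21 without day 7 replicate C. The log2 ratio of Srebf1 to Srebf2, day 14 against day 0, was 0.13 by TPM and -0.14 by CPM. The replicate block left 303 of 306 results of single members in place and ended no call, with 15 sterol enzymes lower on day 7 against day 4.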

Other observations

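The list of glycerolipid synthesis and lipid droplets held genes whose highest level came before day 4, the day on which most members were highest. Plin2, which coats lipid droplets, and the choline kinase gene Chka were picked from it after their values were seen. Plin2 had 144 ± 15.6 CPM (SD, n = 3) on day 0 and 1760.5 ± 175 on day 1. By day 2 its level was 1282 ± 152 and by day 4 it was 609 ± 17.0, with a wide spread on day 7 (609 ± 554) and 349.7 ± 21.0 at the end. Chka had 72.4 ± 8.55 CPM on day 0, 749.5 ± 33.2 on day 1 and 378 ± 42.6 on day 4. By CPM both were highest on day 1, but by TPM Chka was highest on day 2, and neither was called changed from day 1 to day 2. Of the 34 members of the module, 26 were lower on day 1 than on day 0 and 4 higher. Over all tested genes 37.1% were lower and 33.1% higher. The 26 were 13 sterol enzymes, 7 fatty acid enzymes and 6 sensing genes. Counts against day 0 changed with the scaling of the libraries. Lpcat1, an acyltransferase of phosphatidylcholine remodelling, had 11.1 ± 0.430 CPM on day 1, 78.4 ± 1.58 on day 4 and 62.3 ± 2.86 on day 14. The acyltransferases of triglyceride synthesis took different courses. Gpam had 174 ± 14.4 CPM on day 0 and 37.2 ± 4.35 on day 1. Dgat2 had 447 ± 61.9 CPM on day 0 and 16.1 ± 0.909 on day 4. By mean CPM, Agpat1, Agpat3, Dgat1 and Mogat2 also peaked on day 0, but by mean TPM Agpat1 was highest on day 14 and Dgat1 on day 7. Gpat3 instead peaked on day 1, with a mean of 247 CPM. Agpat2 had its lowest mean on day 0 (27.8 CPM) and its peak on day 4 (114 CPM). So did Gpat4, with 155 and 237 CPM.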
